A study of Homo sapiens with 8 samples.

Results

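The genes described here encode the core proteins of the spliceosome, together with a few genes that share their family names. They were chosen by symbol: every gene named SF3A, SF3B, SNRP, SNRNP, PRPF or LSM followed by letters or digits, plus the helicases DHX8, DHX15, DHX16 and DHX38 and the splicing factors SNW1, CDC5L and PLRG1. This rule, which uses no measured value, found 59 of the 18052 genes in the guide library, represented by 229 guides. Of these, 57 genes had at least 2 guides above the low-count filter and were tested, against 17761 genes tested in all. The rule also takes in 8 genes that carry an LSM name but are not parts of the spliceosome, and these were kept as a group of their own.

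The spliceosome removes introns from pre-mRNA. U1 snRNP recognizes the start of the intron and U2 snRNP, with its SF3A and SF3B subcomplexes, the branch point, after which the U4/U6.U5 tri-snRNP joins. DEAH-box helicases and the PRPF19 complex then remodel the assembly through catalysis and disassembly. Sm proteins form a ring on most spliceosomal snRNAs, and the LSM2 to LSM8 ring sits on U6 snRNA, whereas the LSM1 to LSM7 ring acts in cytoplasmic mRNA decay. Most of these proteins are needed for proliferation in dividing human cells.

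The data were sgRNA read counts from genomic DNA of PC9, an established line of non-small cell lung cancer whose EGFR carries an activating mutation. All 8 libraries came from Cas9-expressing PC9 cells carrying the TKOv3 knockout library, infected in duplicate and selected with puromycin. There were 4 groups of 2 libraries: T0, collected when drugs were added; untreated cells, which received DMSO; and cells exposed to 10 µM erlotinib or 0.1 µM osimertinib, both EGFR inhibitors, with the last 3 groups collected at 72 h. The question was which knockouts were lost or gained over 72 h of growth and which changed in abundance under each drug. These counts give the abundance of each knockout among collected cells, so slower growth and more death cannot be told apart. T0 followed puromycin selection and recovery, so losses before T0 do not show in a change against T0.

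Totals ranged from 32096281 to 39200466 reads per library. Guides against the splicing genes were sparser than the rest already at T0, with median counts of 369 and 398 in the 2 libraries against 518 and 549 over all guides. Their share of all reads was 0.249% and 0.250% at T0, between 0.205% and 0.206% in untreated libraries, between 0.204% and 0.206% under erlotinib and between 0.199% and 0.203% under osimertinib. The share was therefore lower in each of the 6 libraries collected at 72 h than at T0.

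In what follows, L2FC is the median over a gene's guides of the log2 fold change in abundance, relative to the median of 138 non-targeting guides, with the SD between guides as its error. A gene is called lower or higher where its adjusted p is under 0.05 in a two-sided empirical test of 10000 draws of non-targeting guides, adjusted over all genes tested. This test measures the spread among non-targeting guides, not that among a gene's own guides or between cultures. Guides of 1 gene share their target and are not replicate cultures. Of the 57 genes, 46 had 4 guides above the filter.

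Relative to non-targeting guides, knockout of nearly every core splicing gene was depleted during 72 h of untreated growth. Compared with T0, 52 of 57 genes were called lower, with a median L2FC of -0.54, against 66.5% of all genes tested and a median of -0.17. All 57 values were below 0, as were 16993 of the 17761 values over all genes. By this test 0 genes were called higher, against 0.169% of all genes, and DESeq2 fold changes and limma gave 0 as well, as did an unadjusted p under 0.05. Because so many genes fell against non-targeting guides, the same test was run against draws from all targeting guides, which called 14 of the 57 lower and 3.62% of all genes. Those 14 were PRPF38B, LSM2, LSM3, LSM6, LSM7, LSM10, DHX15, PRPF19, SNRNP27, SNRPA1, PRPF4, SF3B4, SNRPD1 and PRPF38A. By edgeR's quasi-likelihood F-test on single guides, 73 of 213 guides of the tested genes were lower, or 34.3%, against 5.93% of all targeting guides. No guide was lower for 20 of the 57 genes, and every guide was lower for 5. The same counts per gene are not given here for all genes, so neither was compared with a background.

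**Figure D1:**
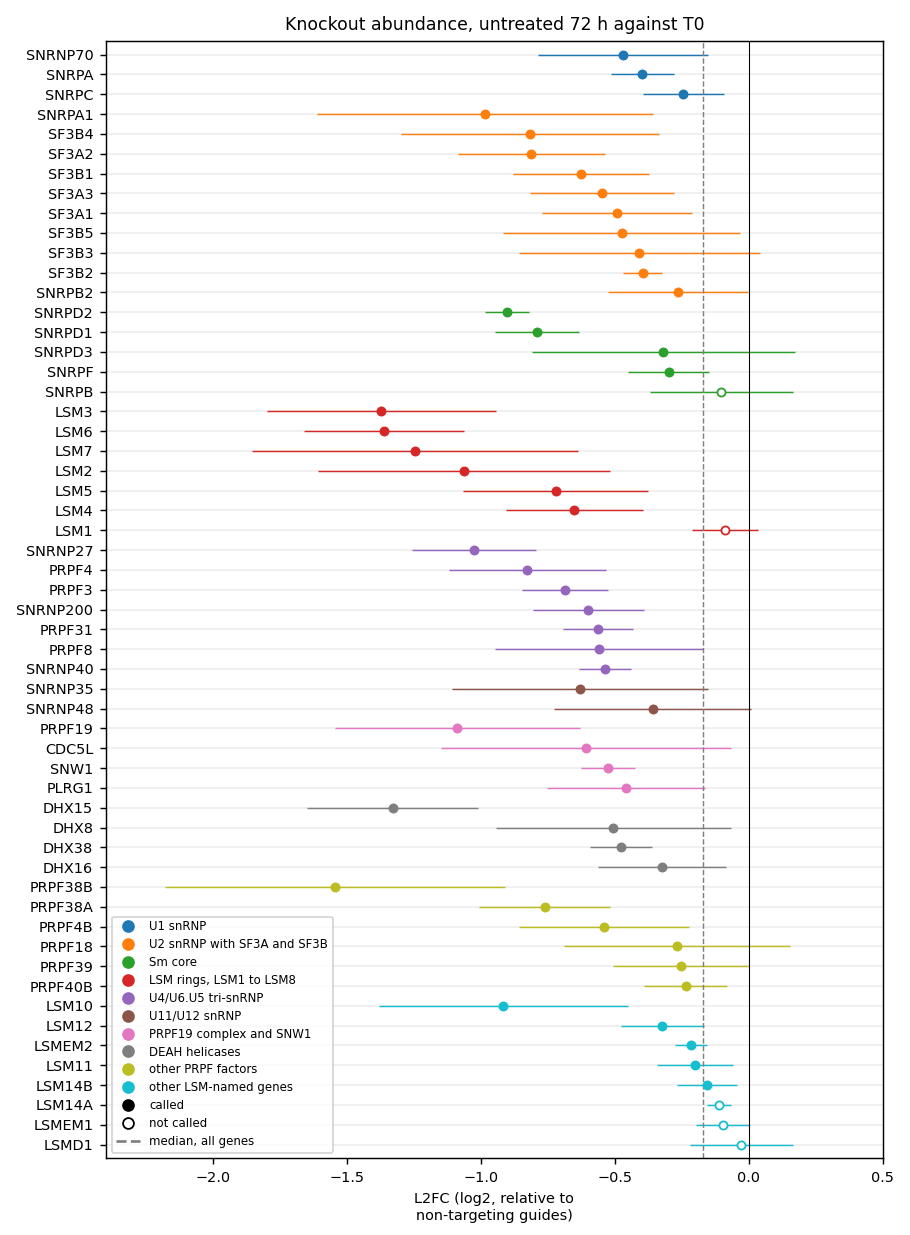
L2FC (log2, x axis) of knockout abundance in untreated cells at 72 h relative to T0 for 56 of the 57 tested genes, coloured by complex; bars are the SD between guides, filled points were called and the dashed line is the median of all genes, -0.17. PRPF38B, LSM3, LSM6, DHX15 and LSM7 lie farthest left, and 5 genes, LSM1 among them, have open points.

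The counts by complex that follow use non-targeting guides, against which 66.5% of all genes were called lower. The LSM ring genes, LSM1 to LSM7, had the lowest median of any group, -1.06. Of these 7 genes, 6 were called lower, 4 of them also against targeting guides. LSM8 was not among the genes found by symbol, so no subunit specific to the U6 ring was tested. LSM3, a subunit of both LSM rings, had levels of -1.32 and -1.38 in the 2 untreated libraries, on a log2 scale relative to T0, and an L2FC of -1.37 ± 0.43 (SD, n = 4 guides). LSM6 had an L2FC of -1.36 ± 0.30 (n = 2 guides). LSM7 had -1.25 ± 0.61 and LSM2 had -1.06 ± 0.55 (n = 4 guides each). LSM1, which is specific to the cytoplasmic decay ring, stood apart from these: its levels were 0.03 and -0.16, and its L2FC of -0.09 ± 0.12 was not called (adjusted p = 0.134). It was called lower when untreated replicate 1 was left out, at -0.16.

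All 7 tri-snRNP genes were called lower, 2 of them also against targeting guides, with a median of -0.60. SNRNP27, the 27-kDa protein of the tri-snRNP, had levels of -1.33 and -0.84 in the untreated libraries and an L2FC of -1.03 ± 0.23. PRPF4, a U4/U6 protein that binds PRPF3, had levels of -0.93 and -0.71 and an L2FC of -0.83 ± 0.29. PRPF8, the large U5 protein at the catalytic centre, and SNRNP200, the helicase that unwinds U4 from U6, sat lower in the ranking of depletion, at -0.56 ± 0.39 and -0.60 ± 0.21 (n = 4 guides each).

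The U2 snRNP with SF3A and SF3B had 10 of 10 genes called lower, 2 of them also against targeting guides, and a median of -0.52. SNRPA1, the U2 A' protein, was the most depleted, with levels of -0.90 and -0.98 and an L2FC of -0.99 ± 0.63. Its partner SNRPB2, the U2 B'' protein, had -0.27 ± 0.26, the smallest value of the group. SF3B1, which clamps the branch point helix and is mutated in several cancers, had -0.63 ± 0.25 over 3 guides. U1 snRNP had a median of -0.40 over 3 genes and U11/U12, which serves the minor introns, -0.49 over 2. All 5 of these genes were called lower, but 0 against targeting guides.

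The remodelling factors spread widely. DHX15, which releases the intron lariat, had levels of -1.21 and -1.43 and an L2FC of -1.33 ± 0.32, with all 4 guides lower by the F-test. The other DEAH helicases lay between -0.32 ± 0.24 (DHX16) and -0.51 ± 0.44 (DHX8). All 4 helicases were called, only DHX15 also against targeting guides. PRPF19, the ubiquitin ligase that names its complex, had levels of -1.12 and -0.96 and an L2FC of -1.09 ± 0.46. PRPF38B, a PRPF38 family member, gave the lowest L2FC of all the splicing genes, -1.55 ± 0.63, although its 2 untreated libraries differed more than most, at -1.29 and -1.78. Its paralog PRPF38A, a factor of the precatalytic spliceosome, had -0.76 ± 0.25.

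Among the Sm genes, 4 of 5 were called lower, 1 of them also against targeting guides, with a median of -0.32. SNRPD2 had levels of -0.75 and -0.92 and an L2FC of -0.90 ± 0.08 (n = 3 guides). SNRPB, which encodes the SmB and SmB' proteins, was not called, at -0.10 ± 0.27 (n = 2 guides, adjusted p = 0.202). Only 2 of its 4 guides passed the filter, and with no filter on low guides its L2FC was -0.45 and it was called lower. SNRPE could not be tested: its single guide had 9 and 1 reads at T0, 1 and 0 in untreated libraries and 0 in all 4 drug libraries, where a count of 0 allows up to 3 reads. SNRPN, a paralog of SNRPB, had 1 guide above the filter, with read counts of 421 and 492 (T0), 350 and 501 (untreated), 430 and 358 (erlotinib) and 368 and 437 (osimertinib), so that the groups overlapped.

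PRPF40B, a U1-associated factor, had -0.24 ± 0.15. SNRPA, the U1 A protein, had -0.40 ± 0.12 beside -0.27 for its relative SNRPB2, a difference that was not tested.

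The 8 genes with an LSM name that are not spliceosome proteins had a median of -0.18, close to the median of all genes. LSM10 was the exception: it forms part of the U7 snRNP, which matures histone mRNA 3' ends, and its levels were -0.87 and -0.92, for an L2FC of -0.92 ± 0.47 with 3 of 4 guides lower by the F-test. Its U7 partner LSM11 had -0.20 ± 0.14 (n = 3 guides). Not called were LSM14A, a P-body protein, at -0.11 ± 0.05, LSMEM1, a predicted membrane protein, at -0.10 ± 0.10, and LSMD1, a subunit of an N-terminal acetyltransferase, at -0.03 ± 0.19. LSMEM1 was called at -0.16 without T0 replicate 2. LSM14B was called at -0.16 ± 0.11, but not without T0 replicate 1 (-0.11), untreated replicate 1 (-0.14) or untreated replicate 2 (-0.15). Leaving these 8 genes out, 47 of the other 49 were called lower, all but LSM1 and SNRPB, with a median of -0.56. Against draws from all targeting guides 13 of the 49 were called lower, where 3.62% of all genes were.

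Compared with untreated cells, most splicing knockouts were not called under either drug, although a larger share was called lower than among all genes. The paper states that a knockout can rise against untreated cells because it resists the drug or because it grows slowly without it. Which of these applied to genes called higher was not tested. Under erlotinib, 8 of 57 genes were called lower and 3 higher, with a median L2FC of -0.03, against 4.43% and 6.04% of all genes and a median of 0.00. These counts rested on single libraries: they were 7 and 9 without untreated replicate 1, when 4 of the 11 calls remained, 5 and 3 without untreated replicate 2, 4 and 4 without erlotinib replicate 1, and 7 and 1 without erlotinib replicate 2. Under osimertinib, 9 were called lower and 1 higher, with a median of -0.06, against 4.58% and 4.44% of all genes and a median of 0.01. They were 6 and 3 without untreated replicate 1, 8 and 2 without untreated replicate 2, 7 and 1 without osimertinib replicate 1, and 6 and 1 without osimertinib replicate 2. Of the 57 L2FC values, 46 lay within 0.2 of zero under erlotinib and 41 under osimertinib. Their lower quartiles were below those of all genes, at -0.16 against -0.07 under erlotinib and -0.18 against -0.08 under osimertinib. The upper quartiles were 0.09 and 0.09, against 0.08 and 0.09 over all genes. SNW1, DHX8, DHX15 and PRPF38A were called lower and LSM10 higher in both comparisons, which share the 2 untreated libraries.

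Against draws from all targeting guides, fewer were called. SNW1 was then lower and LSM10 higher under erlotinib, against 0.529% of all genes lower and 1.11% higher. Under osimertinib DHX15, DHX8 and SNW1 were lower and LSM10 higher, against 0.676% and 0.529% of all genes. Among single guides by the F-test, 6 of the 213 were lower and 5 higher under erlotinib, where 1.05% and 1.76% of all targeting guides were. Under osimertinib the counts were 7 lower and 4 higher, where 2.33% and 2.41% of all targeting guides were.

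**Figure D2:**
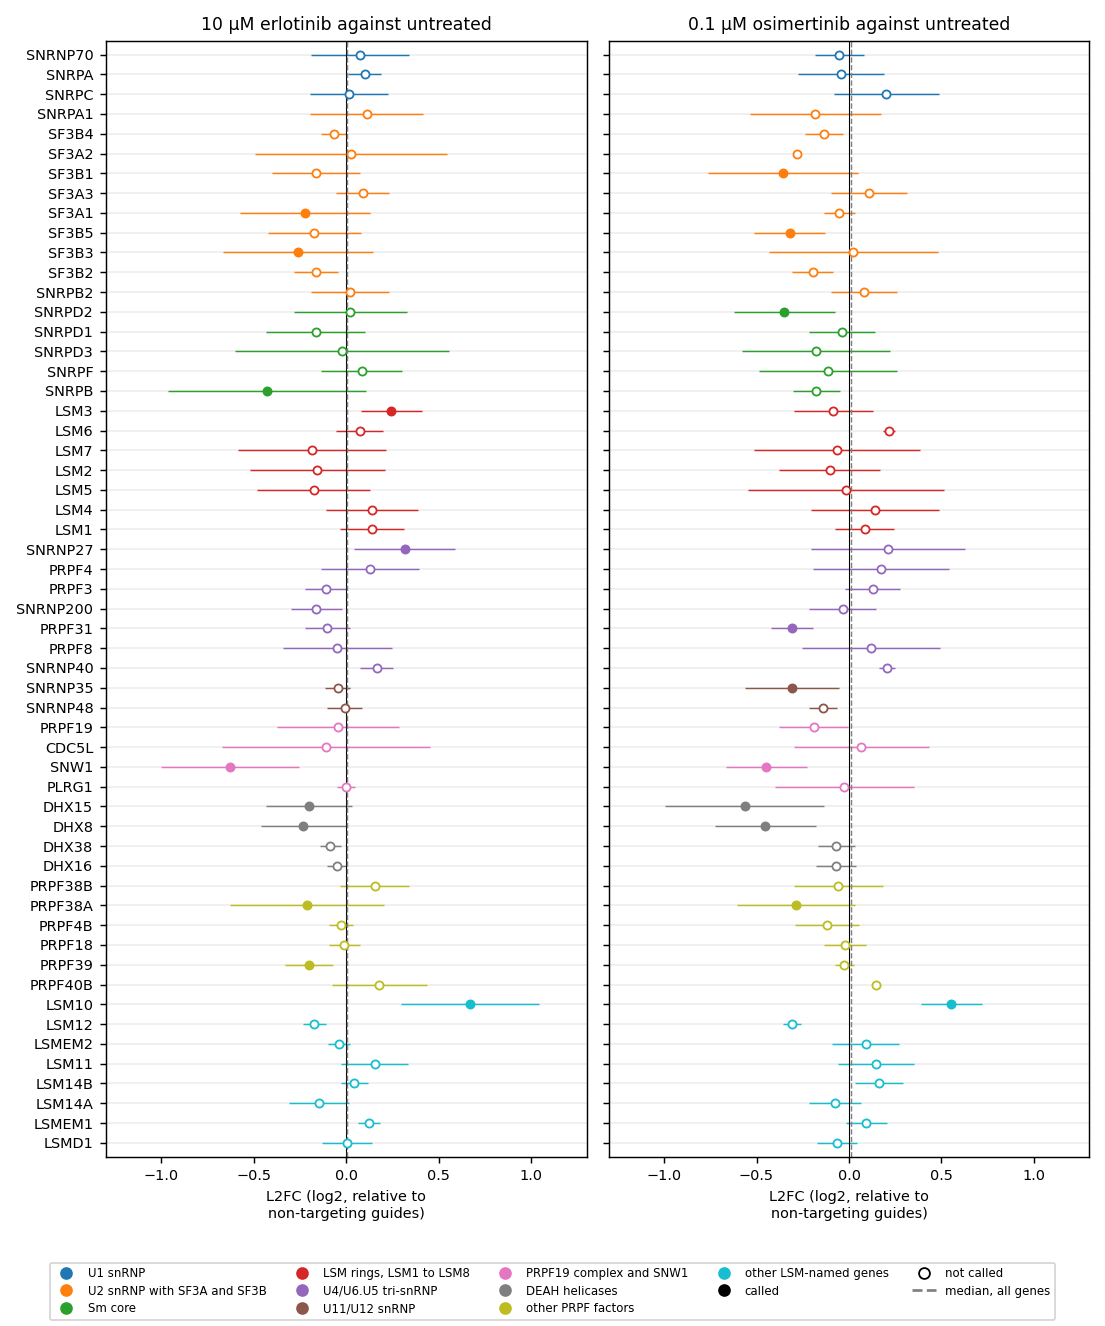
L2FC (log2, x axis) relative to untreated cells at 72 h under 10 µM erlotinib (left) and 0.1 µM osimertinib (right), in the same gene order and colours as the plot against T0; bars are the SD between guides and filled points were called. SNW1 (-0.63 and -0.45) and LSM10 (0.67 and 0.55) stand at opposite ends under erlotinib, and DHX15 (-0.56) is lowest under osimertinib.

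SNW1, a catalytic-stage spliceosome protein that is also a transcriptional coregulator, fell under both drugs. Its levels relative to T0 were -0.43 and -0.60 in untreated libraries, -0.98 and -1.26 under erlotinib and -1.13 and -1.08 under osimertinib. Every drug library lay below both untreated libraries. The L2FC against untreated was -0.63 ± 0.37 for erlotinib (adjusted p = 0.0023) and -0.45 ± 0.22 for osimertinib (adjusted p = 0.0041), over 4 guides. The guide with the largest change had 117 and 127 reads in untreated libraries, 51 and 54 under erlotinib and 63 and 110 under osimertinib. These calls held in all 14 alternative settings, with leave-one-out ranges of -0.74 to -0.46 and -0.68 to -0.38. The other members of its group, PRPF19, CDC5L and PLRG1, were not called in either comparison.

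The helicases DHX15 and DHX8 fell under osimertinib. DHX15 levels were -1.21 and -1.43 in untreated libraries, -1.76 and -1.75 under osimertinib and -1.43 and -1.57 under erlotinib. The osimertinib libraries lay below both untreated libraries, while the first erlotinib library was level with the second untreated one. The L2FC was -0.56 ± 0.43 for osimertinib and -0.20 ± 0.23 for erlotinib. The erlotinib call (adjusted p = 0.0437) was lost without untreated replicate 1 (-0.11) or erlotinib replicate 2 (-0.14). One DHX15 guide fell from 281 and 293 reads untreated to 147 and 149 under osimertinib, while another was nearly level, with 178 and 169 against 164 and 189.

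DHX8, which releases spliced mRNA from the spliceosome, had levels of -0.45 and -0.53 untreated, -0.89 and -0.75 under osimertinib and -0.72 and -0.53 under erlotinib. Its L2FC was -0.45 ± 0.27 for osimertinib, with leave-one-out values of -0.51 to -0.39, all called. For erlotinib it was -0.23 ± 0.23, and that call rested on single libraries: without erlotinib replicate 1 the value was 0.02, and it was also not called without untreated replicate 1 (-0.18), untreated replicate 2 (-0.18) or erlotinib replicate 2 (-0.22). DHX16 and DHX38 were not called under either drug.

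LSM10 was the only one of the 57 genes called higher under both drugs. Its levels were -0.87 and -0.92 in untreated libraries, -0.18 and -0.15 under erlotinib and -0.30 and -0.44 under osimertinib. All 4 drug libraries lay above the untreated ones and below the T0 mean. The L2FC against untreated was 0.67 ± 0.37 for erlotinib (adjusted p = 0.0023) and 0.55 ± 0.17 for osimertinib (adjusted p = 0.0041), and both calls held in all 14 alternatives. In the guide with the most reads at T0, counts were 527 and 572 there, 210 and 284 in untreated cells, 454 and 469 with erlotinib and 414 and 397 with osimertinib. All 4 guides had fold changes above 0 in both comparisons, and 3 of them passed the F-test under erlotinib and 2 under osimertinib. Against T0, LSM10 was still called lower under osimertinib, at -0.38 ± 0.32, and was not called under erlotinib, at -0.13 ± 0.13 (adjusted p = 0.055). LSM11 had 0.15 ± 0.18 and 0.15 ± 0.21 against untreated, neither called.

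**Figure D3:**
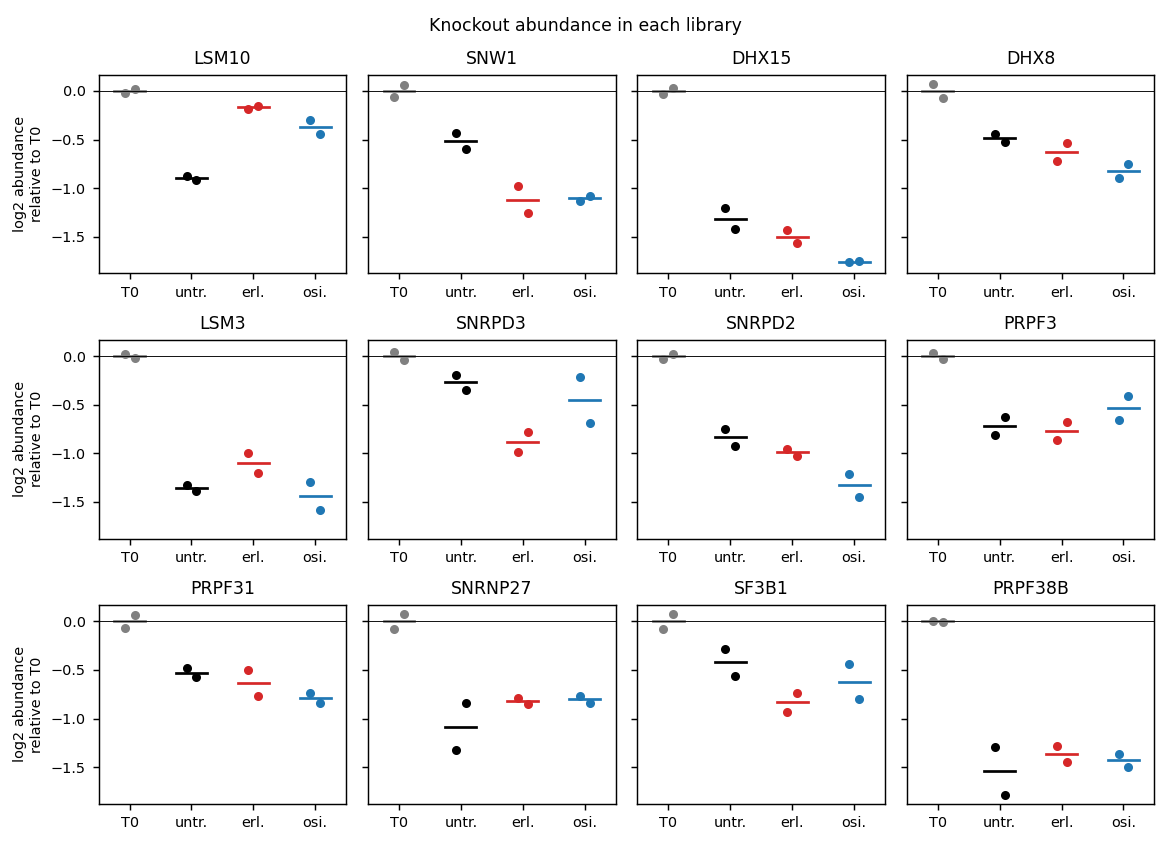
Knockout abundance of 12 genes in each of the 8 libraries (y axis, log2, median over guides after subtracting the non-targeting median and the mean of T0; dots are libraries, lines the mean of 2). The erlotinib libraries of LSM10 (-0.18 and -0.15) lie far above its untreated ones (-0.87 and -0.92), and the osimertinib libraries of DHX15 (-1.76 and -1.75) lie below its untreated ones.

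**Figure D4:**
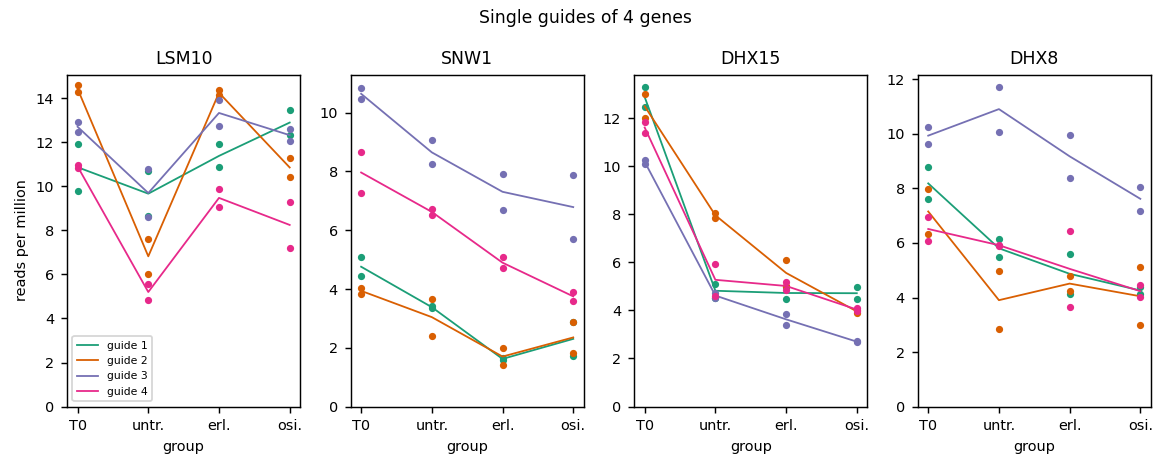
Depth-scaled reads (y axis, CPM, from 0) of each of the 4 guides of LSM10, SNW1, DHX15 and DHX8, numbered in arbitrary order; dots are libraries and lines join the group means. Each LSM10 guide is higher under both drugs than in untreated cells on average, whereas a DHX15 guide with 178 and 169 untreated reads stays nearly level.

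The other genes called under erlotinib were less stable across libraries. SNRPB had levels of -0.08 and -0.09 untreated and -0.67 and -0.36 under erlotinib, and an L2FC of -0.43 ± 0.54 from 2 guides, of which 1 fell from 169 and 186 reads to 79 and 102. It was not called without erlotinib replicate 1 (-0.28). SF3B3, a scaffold protein of SF3B, had -0.26 ± 0.41 and lost its call without untreated replicate 1 (-0.12) or erlotinib replicate 2 (-0.17). SF3A1, an SF3A subunit, had -0.22 ± 0.35 and was not called without untreated replicate 1 (-0.18), untreated replicate 2 (-0.26) or erlotinib replicate 1 (-0.14). Each of these 3 genes thus had a spread between guides larger than its change.

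PRPF38A had -0.21 ± 0.42 under erlotinib and was not called without untreated replicate 1 (-0.14), untreated replicate 2 (-0.27) or erlotinib replicate 1 (-0.09). PRPF39, a U1-associated splicing factor, had -0.20 ± 0.13 and was not called without untreated replicate 2 (-0.19), erlotinib replicate 1 (-0.09) or erlotinib replicate 2 (-0.23). SNRNP27 was called higher at 0.32 ± 0.27, with both erlotinib libraries, at -0.78 and -0.85, near its second untreated library at -0.84. Without untreated replicate 1, which stood at -1.33, the value was 0.05, and the call was also lost without erlotinib replicate 1 (0.12) or erlotinib replicate 2 (0.13). LSM3 was called higher at 0.24 ± 0.16, with levels of -0.99 and -1.20 above both untreated libraries, but not without untreated replicate 1 (0.16) or erlotinib replicate 2 (0.26).

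Under osimertinib, the remaining calls fell in several complexes. PRPF31, a U4/U6 protein mutated in retinitis pigmentosa, had levels of -0.74 and -0.84 against -0.48 and -0.58 untreated, and an L2FC of -0.31 ± 0.11 that was called without each library in turn (-0.35 to -0.28). SNRPD2 had levels of -1.21 and -1.45 against -0.75 and -0.92 and an L2FC of -0.35 ± 0.28, called in the full set but not without untreated replicate 2 (-0.39) or osimertinib replicate 2 (-0.33). SF3B5, a small SF3B subunit, had -0.86 and -1.04 against -0.41 and -0.50 and an L2FC of -0.32 ± 0.19, not called without untreated replicate 1 (-0.25) or osimertinib replicate 1 (-0.30). In these 3 genes the osimertinib and untreated libraries did not overlap.

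SNRNP35, a U11/U12 protein, had an L2FC of -0.31 ± 0.25 under osimertinib and was not called without untreated replicate 1 (-0.18), osimertinib replicate 1 (-0.28) or osimertinib replicate 2 (-0.28). PRPF38A had -0.29 ± 0.32 and was not called without untreated replicate 1 (-0.21) or osimertinib replicate 1 (-0.18). SF3B1 had -0.36 ± 0.41 over 3 guides, with levels of -0.44 and -0.80 that overlapped the untreated -0.28 and -0.57. Its value was -0.03 without untreated replicate 1, -0.19 without osimertinib replicate 1 and -0.08 without osimertinib replicate 2, none of them called, and -0.12 with no filter on low guides.

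Other genes of the same families were not called with all libraries included. PRPF38B, the most depleted gene in untreated cells, had 0.15 ± 0.19 under erlotinib and -0.06 ± 0.24 under osimertinib, and was called higher under erlotinib only without untreated replicate 1 (0.31). PRPF40B had 0.18 ± 0.26 and 0.15 ± 0.02. LSM14A had -0.15 ± 0.16 and -0.08 ± 0.14, and LSM14B 0.04 ± 0.07 and 0.16 ± 0.13. None of these was called in either comparison. SNRPA had 0.10 ± 0.09 and -0.04 ± 0.23, and SNRPB2 0.02 ± 0.21 and 0.08 ± 0.18. SNRPA was called higher under erlotinib only without untreated replicate 1 (0.20). SNRPB was not called under osimertinib, at -0.18 ± 0.13.

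The drugs were also compared with each other, at the doses used, which differed. Erlotinib against osimertinib called 2 of 57 genes lower and 3 higher, with a median of 0.00, against 0.754% and 2.07% of all genes. Without erlotinib replicate 1 it called 0 lower and 1 higher and none of the same genes, without erlotinib replicate 2 it called 4 and 6, without osimertinib replicate 1 it called 1 and 4, and without osimertinib replicate 2 it called 1 and 2. DHX15 was higher under erlotinib, at 0.36 ± 0.22, the sign of the levels given above. LSM3 was higher as well, with 0.29 ± 0.15, from -0.99 and -1.20 against -1.29 and -1.58. Both calls were lost without erlotinib replicate 1 (0.29 and 0.25), and that of LSM3 also without osimertinib replicate 2 (0.15).

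The 2 genes lower under erlotinib than under osimertinib were SNRPD3 and PRPF3. SNRPD3, an Sm protein with 3 guides above the filter, had levels of -0.99 and -0.78 under erlotinib and -0.21 and -0.69 under osimertinib, and an L2FC of -0.46 ± 0.48. Its guides disagreed: 1 guide had 104 and 100 reads untreated, 103 and 80 under osimertinib and 38 and 54 under erlotinib, whereas another had 772 and 796, 718 and 705, and 669 and 711. Against untreated its L2FC was -0.02 ± 0.58 under erlotinib and -0.18 ± 0.40 under osimertinib, neither called. Their order was opposite to the direct comparison, each value being a median over 3 guides. The erlotinib value also disagreed with the levels, where both erlotinib libraries lay below both untreated ones. PRPF3 had -0.87 and -0.68 under erlotinib and -0.65 and -0.41 under osimertinib, and an L2FC of -0.25 ± 0.15. SNRPD3 was not called without erlotinib replicate 1 (-0.36) or osimertinib replicate 1 (-0.17), nor PRPF3 without erlotinib replicate 1 (-0.22) or osimertinib replicate 2 (-0.19), or with the replicate number as a block (-0.24). Not called were several others: SNRPB had -0.25 ± 0.41, PRPF38A -0.03 ± 0.19, PRPF38B 0.11 ± 0.22, PRPF40B 0.04 ± 0.26, LSM14A -0.02 ± 0.07, LSM14B -0.11 ± 0.09, SNRPA 0.17 ± 0.15 and SNRPB2 -0.02 ± 0.11. Without erlotinib replicate 2, SNRPB (-0.40) and PRPF38B (0.26) were called.

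Relative to T0, the splicing knockouts were also depleted in the drug-treated cells. Under erlotinib 48 of 57 genes were called lower, with a median of -0.62, against 51.1% of all genes and a median of -0.14. Under osimertinib 50 were called lower, with a median of -0.60, against 44.3% and -0.14. In both comparisons 0 were called higher, by this test, by DESeq2 fold changes, by limma and at an unadjusted p under 0.05, against 0.681% and 1.49% of all genes. Against targeting guides the counts were 21 and 22, where 2.96% and 3.63% of all genes were called. PRPF38A, at -1.09 ± 0.47 and -0.99 ± 0.43, and PRPF38B, at -1.37 ± 0.73 and -1.39 ± 0.60, were lower in both. LSM14A was called lower in both, at -0.26 ± 0.18 and -0.19 ± 0.17, the latter not without T0 replicate 1 (-0.13) or osimertinib replicate 2 (-0.16). SNRPA had -0.26 ± 0.18 and -0.41 ± 0.30, both called. SNRPB had -0.51 ± 0.80 and -0.26 ± 0.40, and SNRPB2 -0.28 ± 0.39 and -0.16 ± 0.41, called in each case. The osimertinib calls of both were lost without T0 replicate 1 (-0.22 and -0.12) or osimertinib replicate 1 (-0.26 and -0.13), and that of SNRPB also without osimertinib replicate 2 (-0.30). PRPF40B (-0.07 and -0.08) and LSM14B (-0.10 and 0.00) were called in neither.

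By complex, the LSM ring stayed lowest, with medians of -1.06 untreated, -1.13 under erlotinib and -1.12 under osimertinib. The PRPF19 group had -0.57, -0.99 and -0.92, and the Sm genes -0.32, -0.88 and -0.43. The tri-snRNP genes had -0.60, -0.67 and -0.74 and the U2 group -0.52, -0.70 and -0.66. U1 genes were the least depleted spliceosome group under both drugs, at -0.26 and -0.40. Directly against untreated cells, medians under erlotinib and osimertinib were -0.08 and -0.11 for the PRPF19 group and -0.02 and -0.18 for the Sm genes. They were -0.05 and 0.13 for the tri-snRNP genes and -0.11 and -0.16 for the U2 group. The LSM ring had 0.07 and -0.02, and U1 genes 0.07 and -0.04. A difference between 2 medians against T0 therefore need not equal the median change under a drug. These medians rest on 3 to 10 genes each and the differences between groups were not tested.

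The splicing genes were set beside 5 other lists of genes needed for growth. In untreated cells the medians against T0 were -0.58 for 78 other splicing factors, -0.52 for 39 proteasome genes, -0.79 for 53 cytosolic ribosome genes, -0.84 for 26 RNA polymerase genes and -0.89 for 17 genes of snRNP assembly. Under erlotinib they were -0.54, -0.56, -0.60, -0.64 and -0.69 in the same order. The core splicing genes had -0.54 untreated and -0.62 under erlotinib, but their medians in single libraries overlapped, at -0.45 and -0.57 untreated and -0.65 and -0.54 under erlotinib. Under osimertinib the medians were -0.58, -0.70, -0.76, -0.78 and -0.70. Without the 8 LSM-named genes outside the spliceosome, the other 49 genes had -0.56 untreated, -0.66 under erlotinib and -0.67 under osimertinib. Their single-library medians were -0.48 and -0.58 untreated and -0.74 and -0.63 under erlotinib, while their median directly against untreated was -0.05 under erlotinib.

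**Figure D5:**
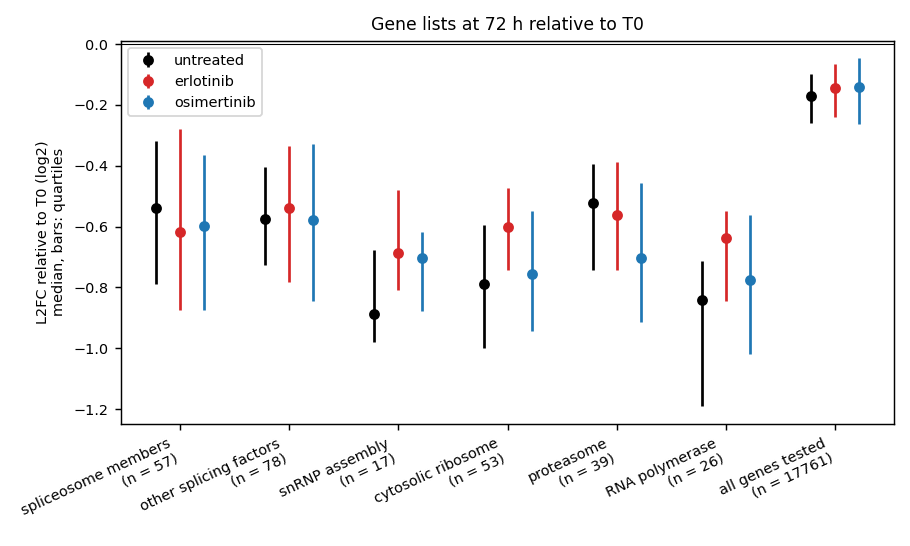
Median L2FC (y axis, log2) relative to T0 in untreated, erlotinib and osimertinib cells for the 57 genes found by symbol, 5 comparison lists and all 17761 genes; bars span the quartiles over genes. The 57 genes sit at -0.54, -0.62 and -0.60, while the RNA polymerase genes sit at -0.84, -0.64 and -0.78.

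Against untreated cells under erlotinib, 14 of 26 RNA polymerase genes, 17 of 53 ribosome genes and 8 of 17 snRNP assembly genes were called higher. The same held for 3 of the 57 genes found by symbol, LSM10 among them, and 7 of 78 other splicing factors. Over all genes the share was 6.04%, so the share of the 57 genes was near the background. Without the 8 LSM-named genes outside the spliceosome, 2 of 49 were called higher. Among the assembly genes, PHAX, which exports snRNA precursors from the nucleus, had 0.44 ± 0.53, and GEMIN2, an SMN complex protein, 0.39 ± 0.44. Under osimertinib 10 of 39 proteasome genes and 11 of 78 other splicing factors were called lower, beside 9 of the 57 and 4.58% of all genes. DDX39B, an RNA helicase of spliceosome assembly and mRNA export, had the largest fall among the other splicing factors, at -0.85 ± 0.42 under erlotinib and -1.0 ± 0.41 under osimertinib (n = 4 guides). TXNL4B, a relative of a U5 protein, had 0.43 ± 0.18 and 0.39 ± 0.25 and was called higher under both. The differences between lists were not tested.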

How the data were processed

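Genomic DNA of 8 libraries, 2 per group, was amplified by PCR and sequenced, and the authors deposited 1 table of raw counts per sgRNA. Per the methods, reads were mapped with Bowtie2 allowing 1 mismatch, whereas the submitters' notes name Bowtie 1.3.1. Guide sequences and a genome build are not given in the sources used here. The table holds 71090 guides, 142 of them non-targeting. Gene symbols turned into amounts by a spreadsheet were restored through RefSeq, among them 10 of the 59 genes described. The 5% of guides with the lowest mean normalized count (below 46.0) were left out, which kept 67531. Counts were scaled by TMM and fitted in edgeR 4.0.16 (R 4.3.3) over all 8 libraries with group as the only factor (common dispersion 0.00537). Guides were collapsed to genes by the median (at least 2 guides), centred on non-targeting guides and tested by 10000 draws of them, with Benjamini-Hochberg adjustment over 17761 genes. The smallest p these draws can give is 0.0001. Single guides were tested by the quasi-likelihood F-test.

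Library levels are log2 CPM (prior count 1) relative to the T0 mean. The medians of single libraries need not equal the L2FC, since the median guide can differ. Totals were 32096281 to 39200466 reads. Reads were PCR products without molecular identifiers, so a floor of 3 reads covers counting error only. Per the methods, each condition was plated in 2 replicates after selection. The sources used here do not tie replicate numbers to separate infections, so limma's p-values measure the spread between these libraries. Named were the 12 lowest called genes and each gene not called in untreated against T0, every called gene but 1 in the drug comparisons, pairs of paralogs or relatives, and at most the 2 lowest and 2 highest called of each comparison list. PRPF8, SNRNP200, DHX16 and LSM11 are given in addition and, like SF3B1 against T0, were chosen after their values were seen. Genes and lists were chosen with earlier results of these data known. Alternatives were DESeq2 1.42.0, no filter, targeting guides as reference, the mean over guides, limma 3.58.1 on genes by library, replicate number as a block, and each library left out. The 1 gene left out of the text stayed in the fits and counts and is not reported here. The code was tested on simulated data.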

Additional observations from a re-analysis of the deposited data

Results flagged for a closer look

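In the direct comparison of erlotinib against osimertinib, at the doses used, 2 of 57 genes were called lower and 3 higher. Over all genes 0.754% were called lower and 2.07% higher. Of the 5 genes, 4 are reported here: L2FC was -0.46 for SNRPD3, -0.25 for PRPF3, 0.36 for DHX15 and 0.29 for LSM3. These 4 were called with 2 libraries per drug, and each call was lost without erlotinib replicate 1, at -0.36, -0.22, 0.29 and 0.25. With targeting guides as reference 0 of the 5 were called, and by limma 2.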

How the results depend on the processing

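Of 1176 alternative values of the 84 named gene values, 1064 stayed on the same side of the threshold (28 of them uncalled values whose sign changed), 101 lost the call, 9 gained it and 2 called values reversed: LSM14B against T0 in untreated cells with targeting guides as reference (0.016) and DHX8 under erlotinib without erlotinib replicate 1 (0.018, with a leave-one-out range of -0.23 to 0.018). With targeting guides as reference, genes called lower against T0 numbered 14 untreated, 21 under erlotinib and 22 under osimertinib, with medians of -0.36, -0.47 and -0.45. Against untreated they numbered 1 lower and 1 higher under erlotinib and 3 lower under osimertinib, and 0 in either direction for erlotinib against osimertinib. The mean over guides gave 13 lower under erlotinib, 2 higher under osimertinib and 7 higher for erlotinib against osimertinib. With no filter the last comparison gave 4 lower and 7 higher, and limma gave 0 lower there and 5 lower under erlotinib.

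Leaving out each library in turn gave, against T0, 49 to 52 genes lower in untreated cells (medians -0.57 to -0.45), 47 to 49 under erlotinib (-0.65 to -0.55) and 45 to 50 under osimertinib (-0.71 to -0.56). Against untreated it gave 4 to 8 lower and 1 to 9 higher under erlotinib (-0.072 to 0.012), and 6 to 9 lower and 1 to 3 higher under osimertinib (-0.10 to -0.03). For erlotinib against osimertinib it gave 0 to 4 lower and 1 to 6 higher (-0.01 to 0.04). The cause of these changes was not tested.

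No pairing of libraries by replicate number was seen: deviations of single guides from the group means correlated between -0.00304 and 0.0101. This cannot tell whether libraries with the same number shared an infection, because counting error in single guides also lowers the correlation. With the replicate block, 10 genes were lower under osimertinib, and 1 lower and 4 higher for erlotinib against osimertinib. With 2 libraries a group and low counts for SNRPE, SNRPN and SNRPB, small changes could not be resolved.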

Other observations

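Because LSM10 is a U7 snRNP protein, other genes of histone mRNA production were looked up after its values had been seen. SLBP, which binds the histone mRNA stem-loop, was called lower in untreated cells against T0, at -0.18 ± 0.31 (adjusted p = 0.0048). That value was near the median of all genes, -0.17, and 66.5% of all genes were called lower there. The L2FC of SLBP was -0.04 ± 0.17 under erlotinib and -0.25 ± 0.30 under osimertinib against untreated, the latter called lower (adjusted p = 0.0266). ZNF473, a U7 snRNP-associated zinc finger protein, had -0.05 ± 0.12 and -0.12 ± 0.11 under the drugs, and NPAT, a histone gene coactivator, 0.09 ± 0.28 and 0.16 ± 0.22, none of them called. Against T0 in untreated cells NPAT was called lower at -0.31 ± 0.29 (adjusted p = 0.0003), and ZNF473, at -0.10 ± 0.02, was not called.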
